A study of Homo sapiens with 8 samples.

Results

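The comparison set the 2 RNA-seq libraries of DU145-Esrrb cells treated with DY131 against the 2 libraries of untreated DU145-pc3.1 cells, 4 of the 8 libraries of the series. A gene was kept where 2 or more of the 8 libraries reached 1 cpm, the count of a gene scaled to library size, which left 13856 of the 23391 genes in the count table. DU145 is an established human prostate cancer cell line. DU145-pc3.1 cells carried the empty vector pcDNA3.1-zeo(+), and DU145-Esrrb cells carried the same vector with Esrrb. Both were pools of stable transfectants rather than single clones, selected in Zeocin at 150 µg/ml for 3 weeks, and cells were used at confluence in phenol-red-free medium with charcoal-stripped serum. The treated cells received DY131 at 3 µM, with a length of treatment not given in the sources used here, and no vehicle is named for the control. The other 4 libraries came from untreated DU145-Esrrb cells and from DU145-pc3.1 cells with DY131, 2 of each. Receptor and compound therefore differed together in the main comparison, and each was also measured alone.

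Esrrb, oestrogen-related receptor beta, is an orphan nuclear receptor that binds DNA at an extended half-site, the oestrogen-related receptor response element, without a known natural hormone. DY131 is a synthetic agonist of Esrrb and of its relative Esrrg. CDKN1A encodes p21, an inhibitor of cyclin-dependent kinases that restrains entry into S phase, and BMP4 encodes a secreted ligand of the transforming growth factor beta superfamily. In the 4 libraries 5 of the 9 prostate luminal markers were at 0, among them KLK2, KLK3, FOLH1 and HOXB13, and the DU145 epithelial marker KRT8 was at 1064 and 1122 cpm in the control.

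The libraries held 7858743 and 9054498 counted reads for DU145-Esrrb + DY131 (libraries a and b, which carry 1 common heading and no replicate number) and 10325443 and 11224833 for the control. The series ranged from 7858743 to 11551690. Spearman correlations within the 4 pairs were 0.994 to 0.997. The chi-square per degree of freedom between the DU145-Esrrb + DY131 libraries was 1.29. It was 1.83 for DU145-Esrrb, 2.67 for the control and 7.30 for DU145-pc3.1 + DY131. The values with DY131 alone and the interactions below therefore use the pair whose libraries were least alike. The study describes its replicates as biological, the labels name no separate cultures, and the p-values measure the spread between the libraries of a group.

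The treated cells held far more ESRRB transcript, more CDKN1A and less BMP4. ESRRB (NM_004452, chr14:76310712-76501837, GRCh38) had 3 and 0 counts in the control libraries and 105 and 143 counts in the treated Esrrb libraries. Both treated libraries lay far above both controls, and the ratio of counts relative to library size was 109, with an exact 95% counting interval of 37.0 to 534 that covers counting error only. ESRRB stood at 8.83 and 9.10 cpm in untreated DU145-Esrrb cells and at 0.00 and 0.10 cpm in DU145-pc3.1 cells with DY131. The transcript that was introduced was thus high in the 2 groups labelled Esrrb and at or near 0 in the other two. The model gave a log2 fold change of 6.65 (SE 0.41, edgeR adjusted p = 3.17e-09).

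CDKN1A (chr6:36676460-36687339) was at 63.7 and 63.3 cpm in the control and at 113 and 117 cpm in the treated Esrrb cells. The groups did not overlap, and the difference was 1.81-fold (log2 0.86, SE 0.09, edgeR adjusted p = 7.72e-07), which passed the p threshold but not the 2-fold limit used for a call. CDKN1A was at 56.1 and 51.2 cpm with Esrrb alone, below the control, and at 87.5 and 70.8 cpm with DY131 alone, above it. On the log2 scale Esrrb alone differed from the control by -0.24, which did not pass the test (edgeR adjusted p = 0.175), and DY131 alone by 0.32 (edgeR adjusted p = 0.0100). The interaction, the part of the combined difference beyond the sum of those 2 values, was 0.78 (edgeR adjusted p = 0.00026) and 0.51 with a correction for exon junctions (edgeR adjusted p = 0.0113). Across the alternatives the log2 fold change of CDKN1A for the combination was 0.58 to 0.96, the lowest value being that of the same correction.

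BMP4 (chr14:53949736-53958761) was at 9.26 and 8.89 cpm in the control and at 0.913 and 1.13 cpm in the treated Esrrb cells. Both treated libraries lay below both controls, by 8.73-fold (log2 fold change -3.13, SE 0.31, edgeR adjusted p = 6.02e-07). BMP4 was also low with either agent alone, at 1.78 and 1.20 cpm with Esrrb and at 1.96 and 3.37 cpm with DY131. The single log2 differences of BMP4 were -2.59 for Esrrb and -1.77 for DY131, which sum to -4.36, and the interaction of 1.23 did not pass the test (edgeR adjusted p = 0.0838). These single comparisons use the same control libraries as the combined one.

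**Figure D1:**
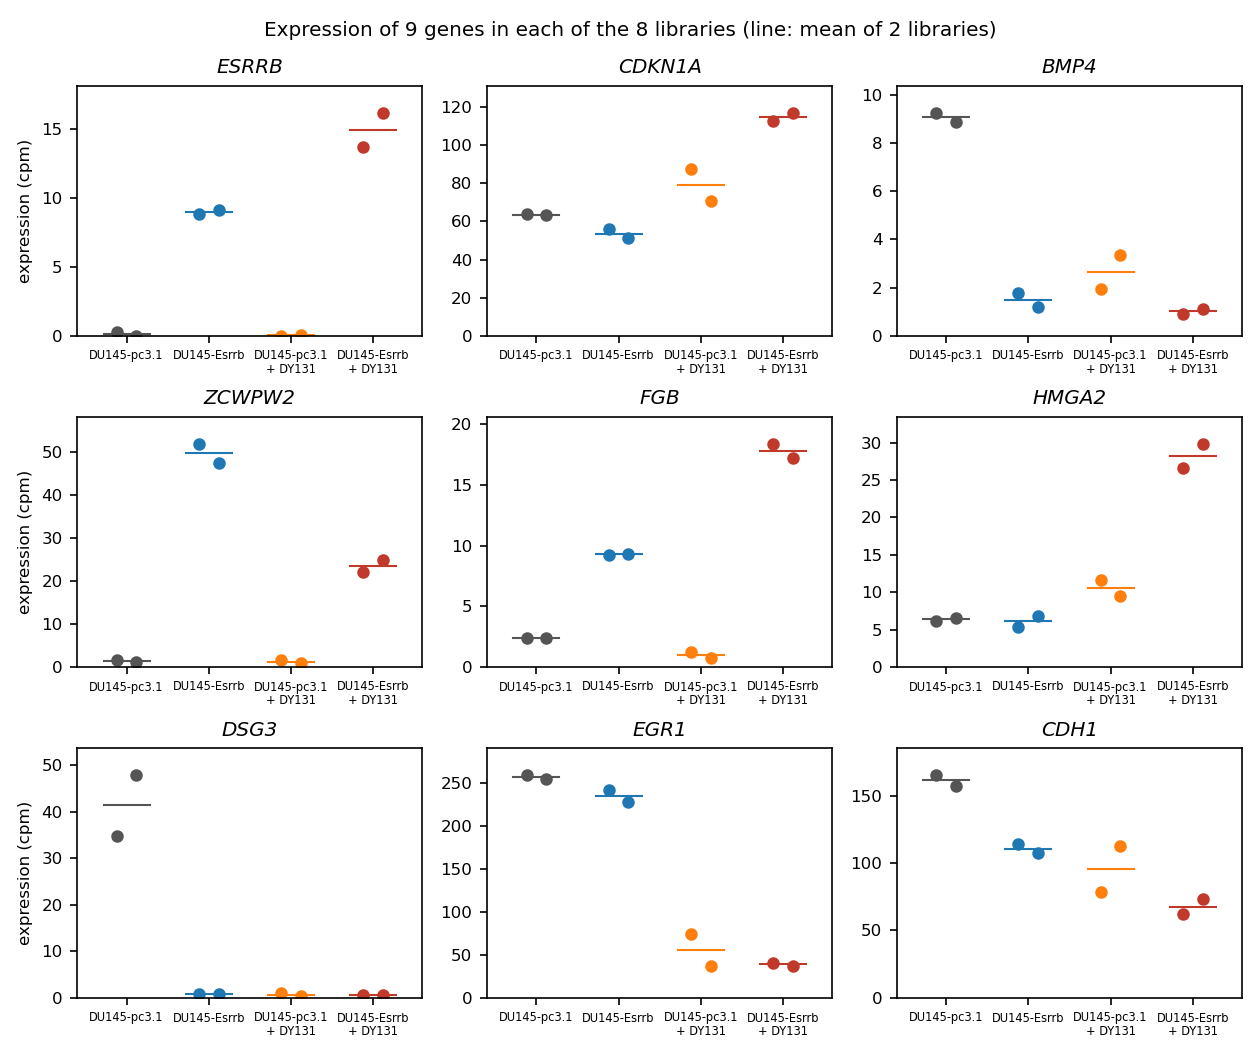
Expression in cpm in each of the 8 libraries for the genes named in the panels, with 1 point per library and a bar at the mean of the 2 libraries of a group. ESRRB is at or near 0 in both empty-vector groups, CDKN1A is highest in the 2 DU145-Esrrb + DY131 libraries at 113 and 117 cpm, and BMP4 is lower than the control in all 3 other groups.

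Across the 13856 genes tested, 8214 differed at an adjusted p below 0.05, 4037 upwards and 4177 downwards. A gene was called where it also differed by at least 2-fold, and 459 genes increased (3.31%) and 1319 decreased (9.52%). The median log2 fold change over all tested genes was -0.01. Calls were thus more frequent downwards, although the number of genes on either side of the control was nearly even without the fold limit. In bulk RNA a smaller number of cells with a transcript and less of it per cell cannot be told apart.

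**Figure D2:**
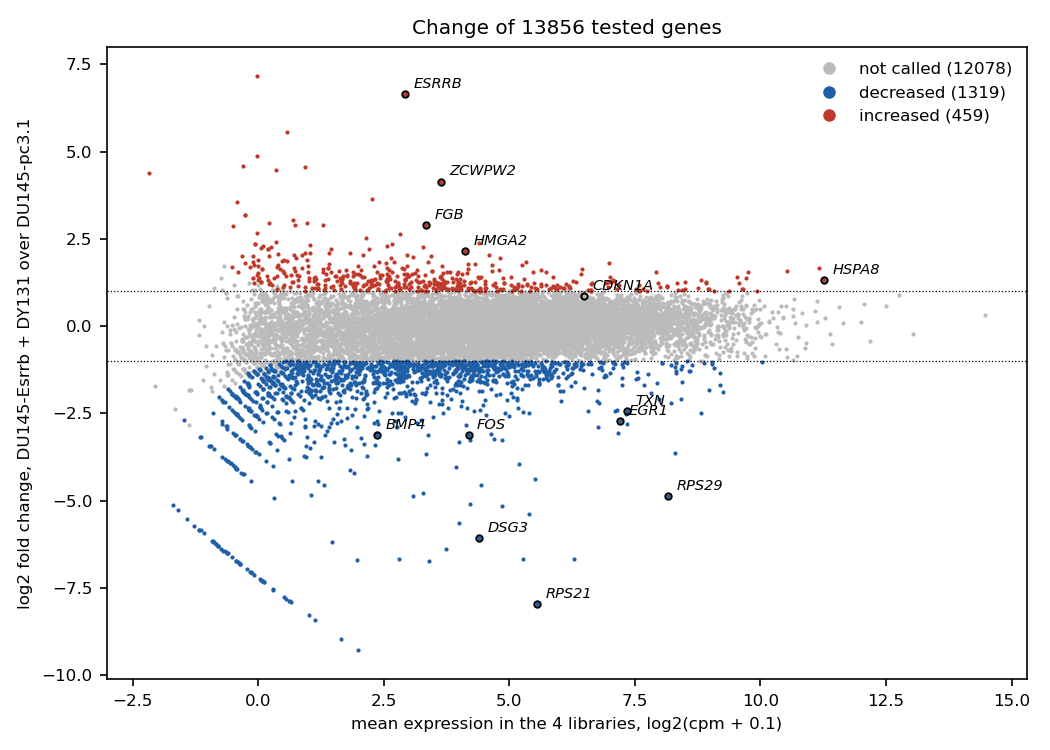
Log2 fold change of DU145-Esrrb + DY131 over DU145-pc3.1 against mean expression as log2(cpm + 0.1), 1 point per tested gene, with called and named genes marked. Calls number 459 above and 1319 below the line, and the diagonal streaks at the lower left are genes with few or 0 counts, whose fitted values are no bounds.

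The DU145-Esrrb + DY131 libraries stood apart from the other 6 in short transcripts and in transcripts rich in exon junctions. Of the tested genes 19 were at 0 in both of these libraries while at 1 cpm or more in the 6 others, and no gene was so in any other group. The levels listed in both libraries were below the lowest of the other 6 divided by 8 for 84 genes, 53 of them at 0 in both, against 0 genes for the control pair, 1 for untreated DU145-Esrrb and 1 for DU145-pc3.1 with DY131. With each treated library set to the floor of 3 counts where it was lower, 29 of the 84 remained beyond that limit. Of the 84, 12 symbols begin with MIR (14.3%), 7 with SNOR or SCARNA (8.33%) and 4 with RPL or RPS (4.76%), against 0.188%, 0.166% and 0.794% of all tested genes. Some of the 12, such as MIR3064, MIR1181 and MIR147B, have 100% of their 50-base windows in common with other genes. Others, such as MIR4461 and MIR3661, have 0%. The median transcript length of the 84 was 1534.5 bases, against 2820.5 over all tested genes, and 16 of the 78 with a known length were under 200 bases (20.5%, against 0.263% of all tested genes with a length).

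A second value moved with the result, the share of a transcript's 50-base windows that cross an exon junction, 50 bases being the read length. Genes in the lowest decile of this share (up to 2.82% of windows) had a median log2 fold change of 0.27, and genes in the highest decile (from 31.2%) had -0.56. In the same deciles 7.95% and 26.3% of genes decreased and 8.68% and 1.31% increased. Across genes, which are not independent replicates and here share their libraries, Spearman's correlation between the share and the log2 fold change was -0.379 for the combination, -0.0390 for Esrrb alone and 0.00975 for DY131 alone. The part of these windows in each result was not tested, and the counts of the gene groups below are therefore given with those of a second fit in which every library's dependence on the share was removed by a spline. In that fit, over 13702 genes with an annotation, this correlation was -0.0405 and 364 genes increased (2.66%) and 1047 decreased (7.64%). Of the 1778 calls, 1236 were made in both fits (294 increased, 942 decreased) and 542 only without the correction. A further 175 genes, not among the 1778, were called only with it. Of the 459 increased and 1319 decreased genes 437 and 1297 had an annotation, and the rest were not in the corrected fit.

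**Figure D3:**
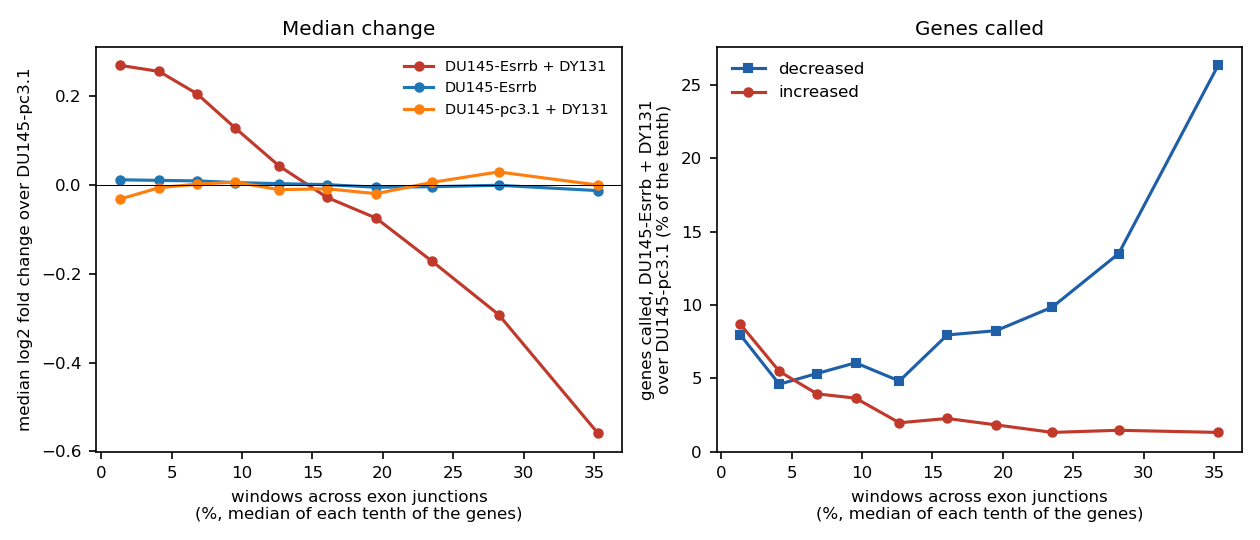
Left, median log2 fold change over DU145-pc3.1 for the combination and each agent alone, and right, the percentage of genes called in the combination, both over deciles of genes ordered by the percentage of 50-base windows that cross an exon junction (horizontal axis, median of each decile). The combination runs from 0.27 to -0.56 while both single agents lie near 0, and the decreased genes rise to 26.3% in the highest decile.

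Most interferon-induced genes tested were called as decreased. Type I interferon drives these genes through a transcription factor complex that binds the interferon-stimulated response element in their promoters, and their products block viral replication at many steps. Of 41 tested members, 26 decreased (63.4%), none increased and the median log2 fold change was -1.15, against 9.52% decreased and a median of -0.01 over all tested genes. In the junction-corrected fit 24 decreased and the median was -1.27. At adjusted p alone 35 were lower, and without control library 1 the number called was 21. Esrrb alone gave the list a median of -0.79 and DY131 alone -0.19, both against the same control libraries.

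The promoters of 5 decreased members are shown because the letters that the interferon complex reads lie close to the start of each. They come from RefSeq promoters on GRCh38.p14, 5′ to 3′ on the strand of the gene, and capitals mark each match to the core TTTCNNTTTC or its reverse complement GAAANNGAAA.
ISG15, chr1:1013354-1013429, plus strand: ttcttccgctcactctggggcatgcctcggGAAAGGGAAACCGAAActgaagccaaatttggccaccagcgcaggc
IFIT1, chr10:89392477-89392559, plus strand: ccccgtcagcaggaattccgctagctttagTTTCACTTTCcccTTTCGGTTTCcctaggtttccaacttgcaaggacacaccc
IFI6, chr1:27672246-27672378, minus strand: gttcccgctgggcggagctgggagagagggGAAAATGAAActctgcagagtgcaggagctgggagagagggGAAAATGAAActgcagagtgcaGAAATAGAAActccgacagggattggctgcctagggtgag
DDX60, chr4:168318766-168318870, minus strand: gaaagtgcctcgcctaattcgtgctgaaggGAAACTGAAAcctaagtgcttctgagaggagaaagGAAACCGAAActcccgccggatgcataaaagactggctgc
RSAD2, chr2:6877602-6877671, plus strand: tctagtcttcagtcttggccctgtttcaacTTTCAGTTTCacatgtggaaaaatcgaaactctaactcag
The core was present on either strand, in windows from 250 bases before to 50 bases after the start, for 16 of 21 decreased members with a window (76.2%) and for 5 of 11 members not called (45.5%). Over all tested genes with a window it was present for 365 of 9630 (3.79%), and for 6.25% of all increased and 5.95% of all decreased genes. Over all reference genes the share was 4.38%. A match is a description of the letters and not evidence of binding.

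ISG15, a ubiquitin-like modifier, was at 50.9 and 38.4 cpm in the control and at 21.4 and 22.7 cpm in the treated Esrrb cells (log2 fold change -1.01), and its call was lost with a length and GC correction (-0.47), without control library 1 (-0.80) and without treated library a (-0.97). IFIT1, which binds foreign RNA ends, was at 38.6 and 31.6 cpm against 12.1 and 11.98 cpm (log2 fold change -1.54). IFI6, a mitochondrial and endoplasmic reticulum protein, was at 29.01 and 22.1 cpm against 7.17 and 6.33 cpm (log2 fold change -1.92). In none of these 3 genes did the groups overlap, and the control libraries differed from each other by more than the treated ones. DDX60, a helicase, was at 15.1 and 10.9 cpm against 1.43 and 2.71 cpm (log2 fold change -2.61). OASL, a relative of the oligoadenylate synthetases, was at 35.0 and 26.2 cpm against 3.78 and 4.64 cpm (log2 fold change -2.85, SE 0.19, edgeR adjusted p = 9.74e-09). IFIT1, IFI6, OASL and DDX60 were each lower in the treated Esrrb libraries than in all 6 other libraries.

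The 4 members with the largest fitted falls rested on few reads. RSAD2, which encodes the antiviral enzyme viperin, had 19 and 23 counts in the control and 0 in both treated libraries, at least 5.26-fold lower against a floor of 3 counts per library. SAMD9L, a restriction factor for poxviruses, was likewise at 0 in both, at least 6.15-fold lower. XAF1, a pro-apoptotic interferon target, was also at 0 in both, at least 2.92-fold lower. RSAD2, SAMD9L and XAF1 are among the 84 genes that set the treated Esrrb libraries apart, and without those genes 23 members were called. MX2, a dynamin-like GTPase, had 51 and 49 counts in the control and 0 and 3 in the treated cells, a ratio of 25.2 (exact 95% counting interval 8.38 to 124).

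**Figure D4:**
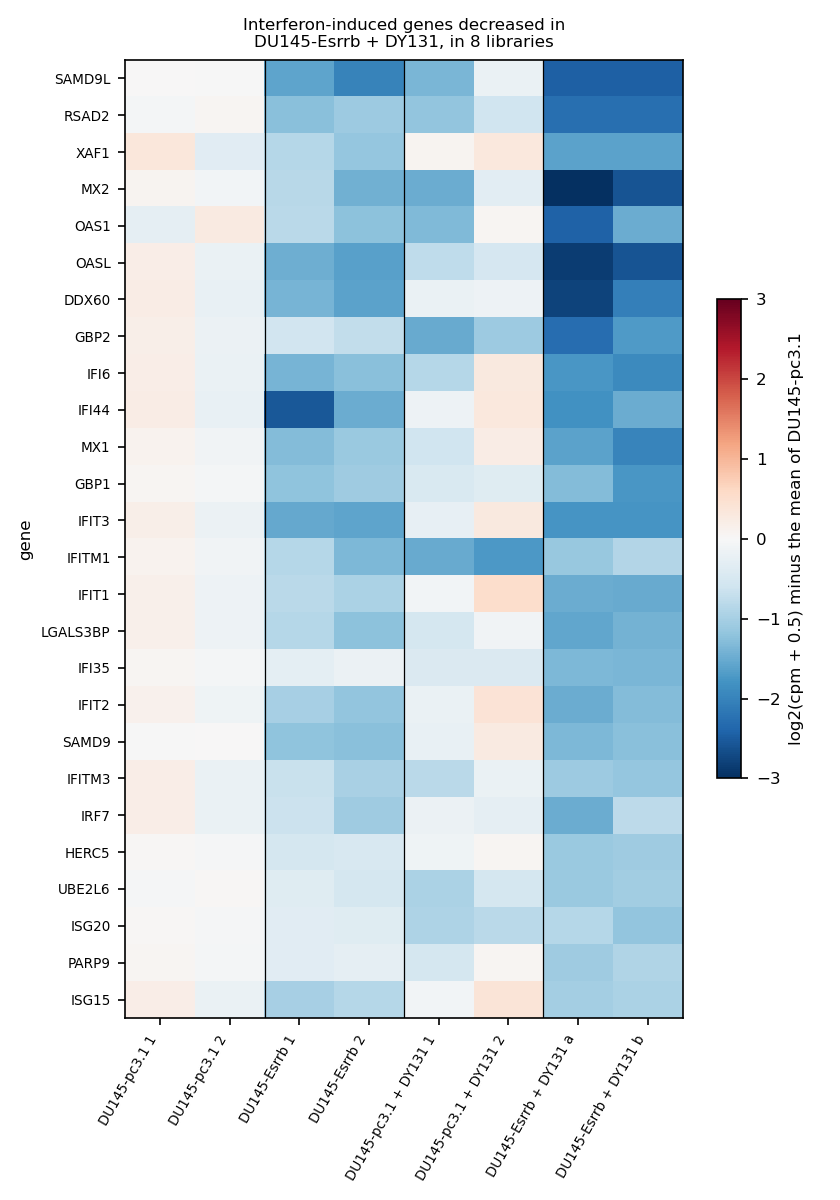
Heat map of the 26 decreased interferon-induced genes (rows) in the 8 libraries (columns), coloured by log2(cpm + 0.5) minus the mean of the 2 DU145-pc3.1 libraries, blue for lower and red for higher. Both DU145-Esrrb + DY131 columns are blue in the rows shown, which were chosen as decreased there, the DU145-Esrrb columns are a paler blue in many of the same rows, and the DU145-pc3.1 + DY131 columns are mixed.

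Ribosomal protein and respiratory chain lists had more decreased members than the 9.52% over all tested genes, although most members of each were not called. Cytosolic ribosomal protein genes had 77 tested members, of which 30 decreased (39.0%) and 1 increased, with a median of -0.85. With the junction correction 22 decreased and the median was -0.56, and without genes that share over 10% of their windows with other genes 12 were called in either direction. The median share of junction windows in this list was 27.7%, against 14.3% over all tested genes. RPS29 was at 538 and 568 cpm in the control and at 17.5 and 20.0 cpm in the treated Esrrb cells (log2 fold change -4.88, corrected -5.08). The correction used the longest matched transcript, of 7062 bases with a junction share of 1.40% for RPS29 and of 2240 bases with 3.88% for RPL36A. The corrected values of these genes depend on that choice, and shorter transcripts were not tested. RPS21 was at 89.1 and 98.7 cpm against 0.391 and 0.339 cpm (log2 fold change -7.97, corrected -5.52). RPS21 had 3 counts in each treated library, a ratio of 259 (exact 95% counting interval 119 to 707). RPL36A fell by 4.38 on the log2 scale, and RPL12, which shares 56.5% of its windows with other genes, by 3.65 (corrected -2.53). RPS29, RPS21, RPL36A and RPL12 are the 4 RPL or RPS symbols among the 84 genes that set the treated Esrrb libraries apart. Without the 84 genes 27 members of the list were called in either direction. RPS26, the member that increased, was at 117 and 121 cpm against 242 and 253 cpm. RPS29, RPS21, RPL36A and RPL12 were near the control level with Esrrb alone, and the list's median was -0.10 with Esrrb alone and -0.23 with DY131 alone.

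Of 76 tested subunits of the respiratory chain and ATP synthase, 17 decreased (22.4%) and none increased, and the median was -0.46. With the correction 14 decreased, and with a length and GC correction 11 were called. ATP5I, a subunit of ATP synthase, was at 34.8 and 37.1 cpm in the control and at 0.913 and 1.13 cpm in the treated Esrrb cells (log2 fold change -5.11, corrected -4.19). ATP5I is among the 84 genes that set the treated Esrrb libraries apart. NDUFA11 of complex I was at 52.2 and 49.4 cpm against 10.2 and 8.03 cpm. NDUFB2 of the same complex fell by 2.27 and ATP5D of ATP synthase by 1.64 on the log2 scale. Among 42 genes of the TCA cycle and fatty acid oxidation 7 decreased (16.7%, against 9.52% over all tested genes) and none increased (median -0.58). With the correction 3 decreased, a share below the 7.64% over all genes in that fit, and the median was -0.36. SUCLG2, a subunit of succinyl-CoA ligase, fell by 2.12 and ETFA, an electron transfer flavoprotein, by 1.69, and both were called in both fits. DLST and HSD17B4, at -1.61 and -1.45, were not called with the correction.

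**Figure D5:**
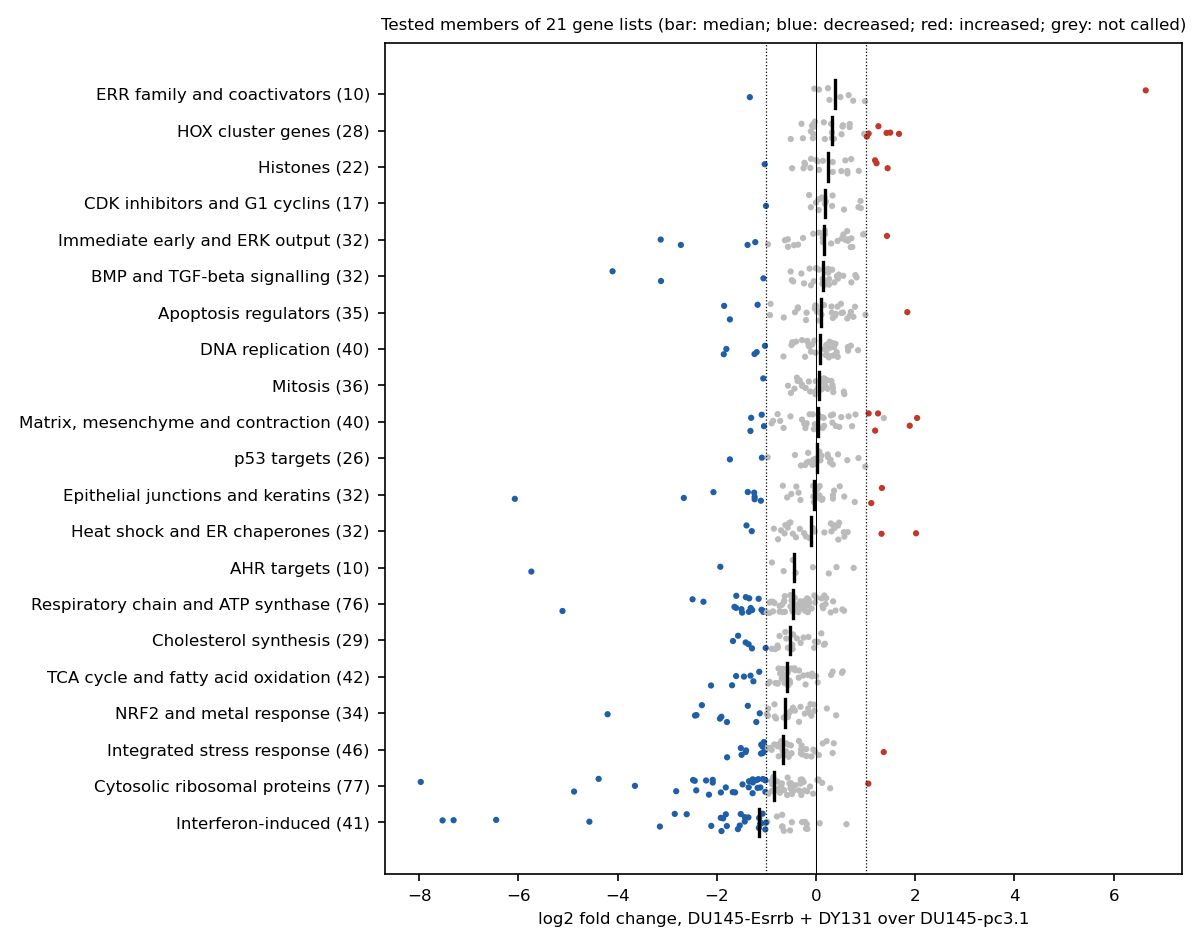
Log2 fold change of DU145-Esrrb + DY131 over DU145-pc3.1 on the horizontal axis, 1 point per tested member of each gene list (number of members in brackets), coloured blue where decreased, red where increased and grey where not called, with a black bar at the list's median and dotted lines at the 2-fold limits. Interferon-induced genes have the lowest median of the lists drawn, -1.15, and fitted values of genes with few or 0 counts are no bounds.

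Some genes of amino acid and sterol synthesis decreased. The integrated stress response, through which ATF4 raises amino acid synthesis and transport, had 46 tested members, of which 11 decreased (23.9%, against 9.52% over all tested genes) and 1 increased (median -0.66). In the corrected fit 7 decreased and 1 increased, and without control library 2 there were 8 calls in all. PHGDH, the entry enzyme of serine synthesis, was at 218 and 231 cpm in the control and at 80.3 and 78.1 cpm in the treated Esrrb cells (log2 fold change -1.50, SE 0.06, edgeR adjusted p = 5.92e-11). NUPR1, a stress-induced chromatin protein, was at 4.87 and 3.61 cpm against 0.913 and 1.47 cpm. ASNS fell by 1.52 and CBS by 1.42, but 97.3% and 94.6% of their windows are shared with other genes, so their reads may be divided. ATF5, a transcription factor of this response, was at 15.5 and 17.3 cpm against 44.2 and 40.6 cpm (log2 fold change 1.36). DY131 alone gave this list a median of -0.60 and Esrrb alone -0.14, beside -0.66 for the combination, and PHGDH had a mean of 97.2 cpm with DY131 alone and 187 with Esrrb alone.

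Cholesterol synthesis had 29 tested members, with 6 decreased (20.7%, against 9.52% over all tested genes) and none increased (median -0.52). With the correction 4 decreased, in a fit where 7.64% of all genes did. TM7SF2, a sterol reductase, was at 41.1 and 35.7 cpm in the control and at 12.9 cpm in both treated libraries. LSS and FDPS, 2 enzymes of the pathway, fell by 1.42 and 1.36 on the log2 scale and were not called with the correction. The stress and metal list governed by NRF2 and MTF1 had 10 of 34 members decreased (29.4%, against 9.52% over all tested genes, median -0.63). With the correction 9 decreased. Without genes that share over 10% of their windows 3 were called, of fewer members. Over the alternatives this list's median was -0.68 to -0.11. TXN, thioredoxin, was at 263 and 288 cpm against 52.4 and 49.3 cpm, a fall of 2.44 on the log2 scale. AKR1B10 and AKR1C1, aldo-keto reductases, were low in all 4 libraries, and the call of AKR1C1 was lost without control library 1 and without treated library b. MT1B, a metallothionein, had 11 and 18 counts against 0 and 1, a ratio of 21.9 (exact 95% counting interval 3.64 to 896). Of 10 tested targets of the aryl hydrocarbon receptor, 2 decreased (20%) in either fit, CYP1A2 and ALDH3A1, both low in every library. Over all genes 9.52% decreased, and 7.64% with the correction. ALDH3A1 lost its call without treated library a, and CYP1A2 without control library 2 and without either treated library.

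Calls in the cell cycle lists are read beside 3.31% increased and 9.52% decreased over all tested genes. Among 17 tested cyclin-dependent kinase inhibitors and G1 cyclins none increased and 1 decreased, CDKN1C, which encodes p57 (log2 fold change -1.01). The call of CDKN1C was lost with DESeq2 (adjusted p = 0.0688), with a length and GC correction, without control library 1 and without treated library a. CCND1 was at 420 and 430 cpm in the control and at 792 and 790 cpm in the treated Esrrb cells, a log2 difference of 0.90 below the fold limit, and DY131 alone gave 654 and 735 cpm. CDK6 also differed by 0.90 and was called as increased with the junction correction (1.04) and with a length and GC correction (1.08). The list's median was 0.18, and 0.11 with the junction correction. Of 40 DNA replication genes 5 decreased (12.5%), RPA3, POLE2, PRIM1 and LIG1 among them, and with the correction 1 did. RPA3, a subunit of the single-strand binding complex, was that gene, at 32.8 and 35.3 cpm against 9.26 and 9.50 cpm. Of 36 mitotic genes PTTG1, which encodes securin, decreased, and none did with the junction or the length and GC correction. Among 26 p53 targets 2 decreased, BBC3 and FDXR, and none increased (median 0.03, corrected -0.03). The list had 4 calls without treated library a and 1 without treated library b. CDKN1A is itself a p53 target. MDM2 differed by 0.29 on the log2 scale and by 0.02 in the corrected fit. FDXR kept its call in 9 of 13 alternatives, and it was not called with the correction, without control library 2 or without treated library b.

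Of 35 apoptosis regulators 3 decreased (8.57%) and 1 increased (2.86%), shares near those over all tested genes. BIK, BBC3 and BMF are pro-apoptotic BH3-only proteins, and they fell by 1.85, 1.74 and 1.18 on the log2 scale. BCL2A1, an anti-apoptotic member of the BCL2 family, was at 2.00 and 2.55 cpm in the control and at 7.69 and 8.70 cpm in the treated Esrrb cells. All 4 were called in both fits, and BMF lost its call without control library 1. BCL2A1 had a mean of 7.49 cpm with DY131 alone and 2.89 cpm with Esrrb alone.

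The BMP and TGF-beta list had 32 tested members, with 3 decreased (9.38%, near the share over all tested genes), BMP4, BMP7 and BMP1, and none increased (median 0.14). With the correction 2 decreased, BMP4 and BMP7, 1 increased, SMURF2, a ubiquitin ligase of the pathway, and the median changed sign to -0.10. BMP7, another secreted ligand, had 13 and 14 counts in the control and 0 and 1 in the treated cells, a ratio of 20.4 (exact 95% counting interval 3.37 to 836). BMP1, a procollagen proteinase, was at 51.9 and 44.4 cpm against 22.6 and 23.5 cpm. It was called in 10 of 13 alternatives, and not with the correction or without control library 1. With a length and GC correction the list had 2 calls. Immediate early genes had 32 tested members, of which 4 decreased (12.5%) and 1 increased (3.12%), shares close to the 9.52% and 3.31% over all tested genes (median 0.17). With the correction 5 decreased, NR4A1, a nuclear receptor, being the one added, 1 increased and the median changed sign to -0.06. FOS was at 39.9 and 25.3 cpm against 3.91 and 3.504 cpm, and EGR1 was at 259 and 255 cpm against 40.3 and 37.5 cpm (log2 fold change -2.72). Both encode transcription factors induced within minutes of growth factor signals, and both were also low with DY131 alone, at means of 3.16 and 55.5 cpm. CTGF, a matricellular protein, fell by 1.38, and SPRY4, a feedback inhibitor of receptor tyrosine kinases, rose by 1.43 on the log2 scale.

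Cell adhesion and matrix genes moved in both directions. Of 32 genes of epithelial junctions and keratins 8 decreased (25%, against 9.52% over all tested genes) and 2 increased. The counts were the same with the correction, and the median was -0.05 without and -0.09 with it. CDH1, E-cadherin, was at 165 and 157 cpm in the control and at 62.3 and 73.2 cpm in the treated Esrrb cells (log2 fold change -1.25). CLDN4, a tight junction protein, was at 65.6 and 48.3 cpm against 13.2 and 13.9 cpm. JUP, plakoglobin, fell by 1.38 and KRT4, a keratin of stratified mucosa, by 2.67. DSG3, a desmosomal cadherin, was at 34.9 and 48.0 cpm in the control and at 0.652 and 0.565 cpm in the treated cells. The fitted fall of DSG3 was 67.3-fold, and the ratio of counts was 68.9 (exact 95% counting interval 37.3 to 144). DSG3 had means of 0.881 cpm with Esrrb alone and 0.712 cpm with DY131 alone.

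Among 40 genes of matrix, mesenchyme and contraction 5 increased (12.5%, against 3.31% over all tested genes) and 4 decreased (10%, near the 9.52% over all), with a median of 0.04. With the correction 3 increased and 2 decreased (median 0.24), in a fit where 2.66% and 7.64% of all genes did. ZEB2, a transcriptional repressor, was at 0.382 and 0.704 cpm against 2.74 and 1.47 cpm. It reached 1 cpm in no other library, so ZEB2, among the 5 increased genes, passed the filter only through the treated Esrrb libraries. ZEB1, a relative of ZEB2, differed by 1.19 and by 0.95 in the corrected fit. LAMA5, a laminin chain, fell by 1.32 and lost its call with the correction, and PXDN, a matrix peroxidase, fell by 1.31. VIM, vimentin, differed by 0.73 and was not called. HOX cluster genes, which specify position along the body axis, had 28 tested members, with 6 increased (21.4%, against 3.31% over all tested genes) and none decreased (median 0.32). With the correction 4 increased and the median was 0.07, and without treated library a 3 were called. HOXB6 was at 17.6 and 18.1 cpm against 45.0 and 50.5 cpm, and HOXB8 was at 9.64 and 7.75 cpm against 24.8 and 24.2 cpm. HOXB4 and HOXB5 rose by 1.67 and 1.26 on the log2 scale.

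Of 32 heat shock and endoplasmic reticulum chaperones 2 increased and 2 decreased (6.25% each, against 3.31% and 9.52% over all tested genes), and with the correction 2 increased and none decreased. HSPA8, the constitutive cytosolic Hsc70, was at 1386 and 1440 cpm in the control and at 3536 and 3518 cpm in the treated Esrrb cells (log2 fold change 1.32, corrected 1.31). HSPA1B also increased but shares 73.5% of its windows with other genes, and its call was lost with DESeq2 (adjusted p = 0.114) and without control library 2. PDIA5 and CRELD2 decreased without the correction alone. Of 22 histone genes 3 increased (13.6%) and 1 decreased (4.55%), against 2 and 1 with the correction, HIST1H4H being at 3.44 and 3.70 cpm against 11.6 and 8.03 cpm, and HIST1H1C, a linker histone, falling by 1.03, a call lost with a length and GC correction, without control library 1 and without treated library a. HIST1H2BJ rose by 1.19, and HIST1H2BG was not called with the correction, with DESeq2 (adjusted p = 0.217), nor without control library 2 or treated library b. Among 10 tested members of the ERR family and its coactivators ESRRB increased and NR0B1, a repressor of nuclear receptors, decreased (log2 fold change -1.33), the latter with a call lost with DESeq2 (adjusted p = 0.0815), without control library 1 and without treated library a. PPARGC1B, a coactivator of this family, was at 6.11 and 6.60 cpm against 13.8 and 11.5 cpm, just under the fold limit at 0.99. It passed the limit with a length and GC correction (1.11), without control library 2 (1.04) and without treated library b (1.11).

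Markers of other cells were few. Of 2 tested luminal, 1 tested fibroblast and 2 tested leukocyte markers none was called, though CD14 was lower with the correction (-1.47), and of 5 tested DU145 epithelial markers CDH1 decreased. The DU145 epithelial markers, which include VIM, summed to 3740 and 3964 cpm in the control and 5346 and 5360 cpm in the treated cells. VIM was at 1633 and 1733 against 2796 and 2773 cpm. KRT8, a simple-epithelial keratin, was at 1064 and 1122 against 1627 and 1616 cpm. KRT18 was at 776 and 847 against 784 and 818 cpm, and EPCAM was lower, at 102 and 105 against 76.9 and 80.1 cpm. The sum of the fibroblast markers was 4.96 and 5.46 cpm in the control and 3.26 and 3.17 cpm in the treated Esrrb cells. The sum of the luminal markers was 41.4 and 39.4 against 54.5 and 58.4 cpm, and that of the leukocyte markers 65.2 in both against 91.1 and 94.0 cpm, with 4 of the 7 leukocyte genes at 0 in all 8 libraries. Nearly all of the leukocyte sum was CD68, a lysosomal protein, at 64.4 and 63.7 against 90.7 and 93.5 cpm, and CD14 was at 0.668 and 1.32 against 0.391 and 0.452 cpm.

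Among genes called in both fits with a mean of at least 5 cpm, the largest rise under the naming rule, after that of ESRRB, was that of ZCWPW2, a zinc finger protein, at 1.53 and 1.15 cpm in the control and 22.2 and 24.98 cpm in the treated Esrrb cells (32.2% of its windows shared). ZCWPW2 had a mean of 49.7 cpm with Esrrb alone and 1.19 cpm with DY131 alone. FGB, the beta chain of fibrinogen, was at 2.39 and 2.38 cpm against 18.4 and 17.2 cpm (log2 fold change 2.89, SE 0.19, edgeR adjusted p = 6.69e-09). For FGB the log2 difference was 1.96 with Esrrb alone and -1.30 with DY131 alone. HMGA2, an architectural chromatin protein, was at 6.20 and 6.60 cpm against 26.6 and 29.8 cpm (log2 fold change 2.14), with differences of -0.08 for Esrrb and 0.72 for DY131. KCNQ5, a potassium channel, was at 4.20 and 4.31 cpm against 18.2 and 16.1 cpm, and its single log2 differences of 0.98 and 1.04 summed to nearly the combined 2.00. GKN2, a gastrokine, rose by 2.63 and SRSF10, a splicing factor, by 2.36. MMP1, interstitial collagenase and a member of the matrix list, rose by 2.04. NBPF14, AGAP6 and the pseudogene PFN1P2 also rose, with 91.7%, 67.9% and 18.5% of their windows shared.

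Genes with almost no reads in the control gave the largest fitted rises. WASH7P had 0 counts in both control libraries and 14 and 15 in the treated ones, at least 6.40-fold higher, but 92.5% of its windows are shared. SPDYE6 had 0 and 1 counts against 21 and 24 and shares 91.2%. SERPIND1, heparin cofactor II, had a ratio of 37.0 (exact 95% counting interval 6.12 to 1514), and NNAT, neuronatin, 30.4 (4.94 to 1253). WASH7P and SERPIND1 reached 1 cpm only in the treated Esrrb libraries and so passed the filter through them. SPDYE6 and NNAT reached it there and in library 1 of DU145-pc3.1 cells with DY131. Among the largest falls, QPRT, an enzyme of NAD synthesis, had 45 and 46 counts in the control and 0 in both treated libraries, at least 11.4-fold lower. UG0898H09 was at least 7.31-fold lower. The humanin-like genes MTRNR2L8, MTRNR2L6, MTRNR2L10 and MTRNR2L3, the pseudogene FKBP1AP1, the small nucleolar RNA host SNHG5, UXT and SEC61G were among the 12 largest falls of genes called in both fits with a mean of at least 5 cpm, under the naming rule. All of these, and QPRT and UG0898H09, are among the 84 genes that set the treated Esrrb libraries apart. FKBP1AP1 and the humanin-like genes have 1 exon and a junction share of 0%, so a call in both fits is no safeguard for them. SNHG5 was at 80.2 and 84.0 cpm in the control and at 1.70 and 2.15 cpm in the treated Esrrb cells, and SEC61G, a subunit of the protein translocon, at 39.8 and 43.1 against 1.96 and 1.58 cpm. SNHG5 and SEC61G had means of 65.7 and 38.6 cpm with Esrrb alone and of 62.8 and 43.7 cpm with DY131 alone. QPRT was lower than the control with each agent alone, at means of 1.05 and 2.07 cpm.

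Whether the combination differed from the sum of its parts was tested by the interaction term. Of the 13856 genes, 213 lay above the sum (1.54%) and 657 below it (4.74%) at an adjusted p below 0.05 and at least 2-fold, 870 in all, and 4674 passed the p threshold alone. With the junction correction 600 were called, 521 of them in both fits, and DESeq2 called 630. FGB lay above the sum by 2.23 and HMGA2 by 1.50 on the log2 scale, whereas KCNQ5 differed from it by -0.02.

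The response element of the receptor, TCAAGGTCA or its reverse complement TGACCTTGA, was looked for in the same RefSeq windows, which 9630 of 13854 tested symbols matched. It was present for 2 of 256 increased genes (0.781%), 5 of 840 decreased genes (0.595%) and 25 of all tested genes with a window (0.260%), and for 0.432% of all reference genes. The windows of ESRRB, CDKN1A and BMP4 held no match, which says only that these letters are not in those windows.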

How the data were processed

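Poly(A) RNA of 8 libraries (4 groups of 2) was sequenced with the TruSeq Stranded mRNA kit as 50-base single-end reads in 1 lane. The authors used FASTX-Toolkit for trimming, TopHat2 for alignment against hg18 and MULTICOM-MAP for counting, and the deposited values are raw counts per gene. Here libraries were scaled by TMM and fitted with edgeR 4.0.16 (R 4.3.3), in 1 quasi-likelihood model over the 4 groups with Benjamini-Hochberg adjustment over 13856 genes. Cpm values use the scaled library sizes, SDs and errors rest on 2 libraries a group, and sampling precision follows 7858743 to 11551690 counts a library. The exon-junction offset is a natural spline (5 degrees of freedom) on GENCODE 29 transcripts, the longest one matched to each gene. Coordinates are from GRCh38, not from the build used for mapping, and 98.9% of tested genes had an annotation. Alternatives were edgeR's exact test, DESeq2 1.42.0, other scalings and filters, and a length and GC correction. Others were the 4 compared libraries alone and leaving out each of these 4. The code was tested on simulated data. The genes and the 25 lists were chosen with earlier results of these data known. Named are ESRRB, CDKN1A and BMP4, the 5 largest calls in each direction, the 12 largest in each direction called in both fits with a mean of at least 5 cpm and no overlap, and up to 4 called members of each list, leaving out symbols that begin with MIR, SNOR, SCARNA or LOC and 28 symbols turned into dates. Other genes (the further interferon members beside promoters, KRT8, RPS26, ATF5, CCND1, CDK6, MDM2, ZEB1, VIM, PPARGC1B, SMURF2, NR4A1, CD68, CD14) were chosen after their values were seen. Some genes that the rule selects are not reported here. Sequences were read from RefSeq windows, and figures were drawn with matplotlib 3.10.9.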

Additional observations from a re-analysis of the deposited data

Results flagged for a closer look

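The response to DY131 differed between the DU145-Esrrb and the DU145-pc3.1 pool for 870 of 13856 genes by the interaction test of edgeR. These were 1.54% of genes above and 4.74% below the sum of the single changes. The naming rule picks genes for a large change in the combined libraries, which the interaction also uses. The share of named genes called was thus partly fixed in advance. Under that rule 51 genes were called. Leaving out 4 with 0 counts in both libraries of a group, the differences from the sum of the single changes are given on the log2 scale. Above the sum were DSG3 by 5.29, FGB by 2.23, PXDN by 1.98, NBPF14 by 1.89, SRSF10 by 1.87, BMF by 1.87, HOXB4 by 1.84, HOXB8 by 1.51, HMGA2 by 1.50, MMP1 by 1.48, AGAP6 by 1.48, GKN2 by 1.27, HIST1H4H by 1.18, HOXB5 by 1.11 and HOXB6 by 1.01. DSG3 was at 34.9 and 48.0 cpm in the control and at means of 0.881 cpm with Esrrb alone and 0.712 cpm with DY131 alone. It was at 0.652 and 0.565 cpm in the combined libraries, and the reason for its interaction was not tested. Furthest below the sum were RPS21 at -7.60, MTRNR2L8 at -6.72, FKBP1AP1 at -6.68, MTRNR2L3 at -6.48, MTRNR2L6 at -6.22, MTRNR2L10 at -5.15, ATP5I at -4.93, SNHG5 at -4.69, RPS29 at -4.59, BMP7 at -4.58, SEC61G at -4.53, UXT at -4.31, RPL36A at -4.18, MT1B at -3.46 and RPL12 at -3.10. All of these except BMP7 and MT1B are among the 84 genes that set the combined libraries apart. Next came TXN at -2.32, POLE2 at -2.23, NDUFA11 at -2.12, NDUFB2 at -2.01, ATP5D at -1.88, SUCLG2 at -1.88, DLST at -1.87, ETFA at -1.55, PDIA5 at -1.54, CRELD2 at -1.47, RPA3 at -1.45, LIG1 at -1.36, HSD17B4 at -1.19, PRIM1 at -1.15, LSS at -1.12 and LAMA5 at -1.11. BMP7 and MT1B rest on 0 and 1 counts in the combined libraries, and MTRNR2L3 on 0 and 2. RPS21 rests on 3 counts in each combined library, FKBP1AP1 on 1 and 2, and MTRNR2L6 on 2 and 3. The libraries with DY131 alone were far apart for MTRNR2L8, at 221 and 72.1 cpm, and for MTRNR2L6, at 34.2 and 9.62 cpm. With the correction for exon junctions 36 of 47 passed both limits and 11 did not, namely DLST (-0.72), PDIA5 (-0.76), LIG1 (-0.75), LAMA5 (-0.69), LSS (-0.64), HSD17B4 (-0.55), PRIM1 (-0.41), HOXB5 (0.86), HOXB6 (0.86), HOXB4 (1.64, adjusted p = 0.0744) and HIST1H4H (1.04, adjusted p = 0.0516). RPS21 moved to -5.64 and SNHG5 to -3.22.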

How the results depend on the processing

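The number of genes called in the combination against the control was within 1.5 times the main 1778 in 10 of 13 other settings, and the increased and decreased counts in 11 and 10. Where every library had to reach 10 counts, 1178 genes were called, 851 decreased. Without a fold limit the counts were 8214, 4037 and 4177. Without genes that share over 10% of their windows, a setting chosen after seeing the data as was the next, 301 increased. Among genes with a junction share below the median 719 were called and 394 decreased; fewer genes are tested there. Leaving out 1 of the 4 compared libraries leaves 1 library in a group, so the spread then comes from the other groups. In each of these fits the median log2 fold change over all tested genes was -0.01. Of 1295 values for the 96 named genes 1250 kept their call and direction, 44 (22 genes) lost the call, CDKN1A gained it without a fold limit, and none reversed. With the fold limit, interferon-induced genes called were 20 to 27 over the alternatives, except 14 among genes with a junction share below the median, where fewer members are counted. In that same setting 8 ribosomal, 3 respiratory chain, 2 stress response and 0 TCA and sterol genes were called, and the length and GC correction left 11 respiratory chain calls. No paired analysis was possible because the 2 DU145-Esrrb + DY131 columns carry no replicate number. Depth limits genes with few counts. Bounds or counting intervals are given for some of them. For others, such as FKBP1AP1, MTRNR2L3 and MTRNR2L6, only fitted values are given.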
